A study of Arabidopsis thaliana with 26 samples.

Results

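The transcripts described here come from the plastid genome, the small circular chromosome inside chloroplasts and their colourless relatives in the root. Members were all probe sets whose locus code in the deposited expression matrix starts with ATCG, which gave 80 of 16384 probe sets on 26 arrays in 10 sample groups. By function they comprised 22 probe sets of ribosomal proteins, 4 of the plastid RNA polymerase (rpo genes), 7 of photosystem I with its assembly factors, 15 of photosystem II, 6 of the cytochrome b6f complex, 6 of the ATP synthase, 1 of the large subunit of rubisco, 11 of the NADH dehydrogenase-like complex (ndh genes) and 8 others. Ribosomal RNAs were not analysed here. The gene rps12, which is transcribed in separate pieces and spliced together, had 2 probe sets, ATCG00065 and ATCG01230. Gene names were assigned to locus codes from the public Arabidopsis annotation, and 79 of the 80 names were held by plastid genes of the RefSeq table. There 77 of the 80 stood in the same order as the locus codes. The names of 7 probe sets end in the mark for possible cross-hybridisation, among them ndhB, rpl2, rpl23, rps7, ycf1, ycf2 and ycf15, and RefSeq holds 8 of the names at 2 places of the genome.

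Plastids descend from photosynthetic bacteria and keep a genome that codes for core subunits of the photosynthetic complexes and for parts of their own transcription and translation machinery. Its genes are read by a bacterial-type polymerase, whose core is made from the plastid rpo genes and whose sigma factors are imported, and by phage-type polymerases imported from the nucleus. Photosynthesis genes depend mainly on the bacterial-type enzyme, while the rpo operon and some genes of other functions such as accD and ycf2 are read mainly by the phage-type enzymes. In roots most plastids are not green, and those of the root tip serve lipid, amino acid and starch metabolism.

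The study profiled Arabidopsis thaliana roots by microarray in a time series of auxin treatment and in the jkd mutant. For the time series, seedlings carrying pSCR::GFP, green fluorescent protein under the SCARECROW promoter of endodermis and quiescent centre (QC), were moved at 2 days after germination onto 1 µM 2,4-D, a synthetic auxin. Root tips of 250 µm were cut, turned into protoplasts and sorted. The untreated time (0 h) has 3 arrays, numbered 1, 3 and 5 in the labels, and each of the treated times (24, 48, 72 and 96 h) has 2, numbered 2 and 3. QC cells came from seedlings 3 days old that had received no 2,4-D, by sorting on GFP under the WOX5 promoter. Their sources were Col-0 grown beside the mutant, jkd-4, and wild type plants of a harvest of their own, here called the separate QC harvest (3 arrays each). Excised meristems of wild type and jkd plants of the same age gave 3 arrays each, and the labels name no allele for the meristems. The free descriptions of the jkd-4 QC and jkd meristem samples do not match their titles or sources, from which the groups were taken. JKD codes for JACKDAW, a zinc finger protein of the ground tissue, and its signal ran from 68.67 to 108.67 in Col-0 QC, from 1.37 to 24.86 in jkd-4 QC, from 172.76 to 201.24 in wild type meristems and from 6.23 to 13.35 in jkd meristems. No untreated cells were profiled at 24 h to 96 h, so 2,4-D cannot be told apart from seedling age. The labels do not settle whether the excised meristems were also protoplasted, so tissue cannot be told apart from sorting when QC cells are set against meristems. Nor do they say whether arrays of a group came from separate plants, and p-values therefore measure the spread between arrays, which may be technical. In bulk RNA, fewer plastid-rich cells and less plastid RNA per cell cannot be told apart.

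The endodermal label held at 0 h, where the mean signal of CASP2, a scaffold protein of the Casparian strip, was 5049.27, against 196.6 at 24 h and 53.25 at 96 h. SCR itself had a mean signal of 519.2 at 0 h and between 627.05 and 1048.75 at the treated times. The niche gene BBM had a mean of 22.03 at 0 h, 920.9 at 96 h and 512.1 in the separate QC harvest. WOX5 was not analysed here. The summed signal of 4 root cap markers ran from 212 to 544.5 at 0 h, from 137.6 to 169.2 at 24 h, from 1112.1 to 1285.6 in the separate QC harvest, from 331.01 to 551.06 in Col-0 QC and from 1107.06 to 1766.21 in the meristems. The markers in that sum did not move together. Mean COBL2 signals were 134.27 at 0 h, 34.97 in the separate QC harvest and 12.79 in wild type meristems. Those of BRN1 were 73.93, 429.9 and 653.17. The sum is therefore not 1 measure of root cap content across groups. Median signals of whole arrays lay between 57.45 (24 h replicate 2) and 102.6 (0 h replicate 5).

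Plastid signal as a whole split the 0 h arrays. On the scale used throughout, log2(MAS5 signal + 16), the mean over the 80 probe sets was 7.08 and 7.67 in 0 h replicates 1 and 3, but 10.01 in replicate 5. The 8 treated arrays lay between 8.99 and 10.02, so replicate 5 sat at their upper edge and the other 0 h arrays below all of them. QC arrays ran from 9.23 to 10.30 and meristem arrays from 7.11 to 7.35, without overlap. At 0 h, replicate 5 had a higher signal than both other arrays in 78 of 80 plastid probe sets (97.5%) and in 58 of 61 mitochondrial ones (95.1%), against 49.2% of nuclear ones. Its median excess over the other 0 h arrays was 2.81 on the log2 scale for plastid probe sets, 2.03 for mitochondrial and 0.14 for nuclear ones. The plastid probe sets that were not raised in it were rpoA and petA. On the same log2 scale its mean over the 4 root cap markers was 7.22, against 6.02 and 5.99 in replicates 1 and 3, and its whole-array median signal was 102.6, against 83.2 and 85.85. The part of either in its plastid signal was not tested. Mitochondrial means moved with the plastid means across the groups: 5.58, 6.02 and 7.69 at 0 h, from 7.23 to 8.45 in treated arrays, from 7.94 to 9.46 in QC arrays and from 5.80 to 6.0 in meristems. The part of this shared organellar shift in any single plastid gene was not tested.

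**Figure D1:**
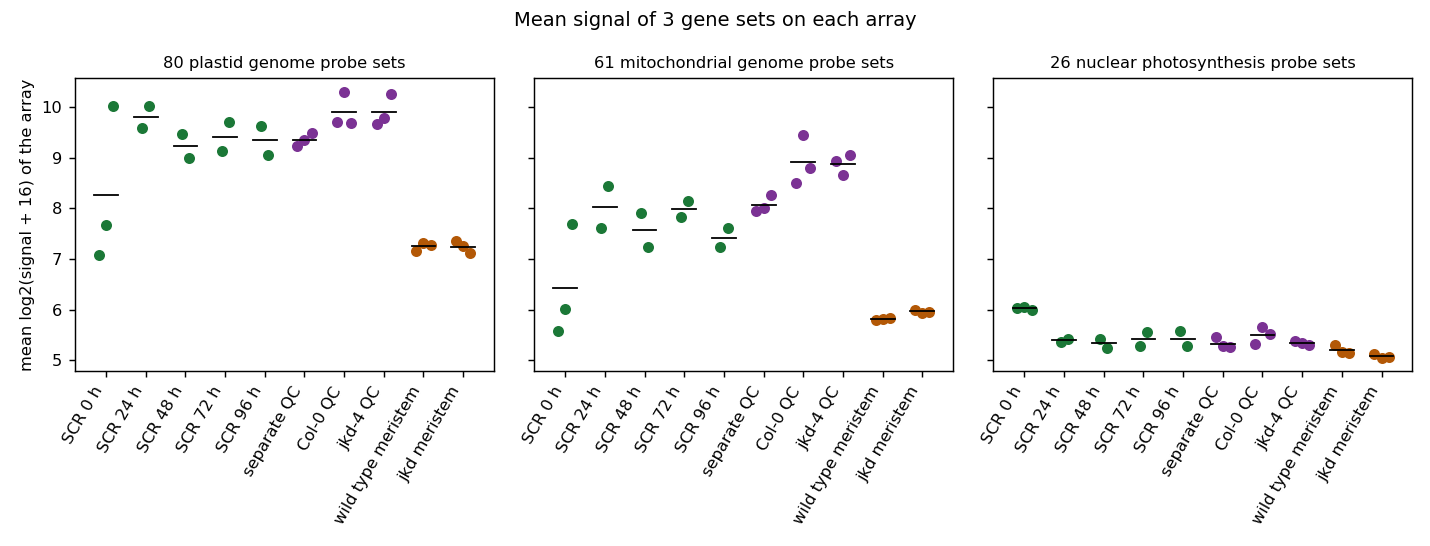
Mean log2(signal + 16) of the 80 plastid, 61 mitochondrial and 26 nuclear photosynthesis probe sets on each array (points), with group means (bars), for the 10 groups. The 0 h array at 10.01 stands apart from those at 7.08 and 7.67 for plastid genes and from the other 0 h arrays for mitochondrial genes, while the nuclear photosynthesis genes show no such gap. That nuclear set has low signals, with array means between 5.04 and 6.05, where a gap is harder to see.

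After 24 h of 2,4-D, transcripts of the plastid genome were mostly higher than at 0 h. With limma and Benjamini-Hochberg adjustment over all 11469 probe sets tested, at an adjusted p under 0.05, 34 of the 80 plastid probe sets rose and 4 fell, where 48.1% of all probe sets passed, 20.7% higher and 27.5% lower. The share that rose was 42.5% of the plastid probe sets. Their median log2 change was 1.70, against -0.22 over all probe sets tested, and 68 of the 80 changes were positive. All 80 had passed the filter on low signal. A member can pass it through its high group alone, which may hold for psbM, psbT and ndhF through the 0 h arrays. The scaling of the arrays moved the level that these changes are read against. Among all probe sets tested the median went from -0.22 to 0.04 with quantile normalization and to 0.33 with scaling to the nuclear median, and the share of calls that were higher from 43% to 53.4% and 68.3%. The plastid median was 1.70 and 2.28 under those scalings, with 31 higher and 3 lower and with 50 higher and 2 lower. The count also rests on which arrays enter. Without 0 h replicate 5, 64 plastid probe sets rose and 2 fell, with a median of 2.58, and all 34 that had risen were among the 64. Without 0 h replicate 1, 23 rose and 6 fell and the median was 1.09, and without 0 h replicate 3, 19 rose and 3 fell. Without 24 h replicate 2, 16 rose and 2 fell, and without 24 h replicate 3, 13 rose and 2 fell. Omitting a treated array leaves a time with 1 array, which these fits assume to vary like the other groups. The fits share 1 spread over the SCR groups, while plastid array means had an SD of 1.55 at 0 h and 0.31 at 24 h. Standard errors and p-values of contrasts with 0 h may therefore be too small where the 0 h arrays spread more.

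**Figure D2:**
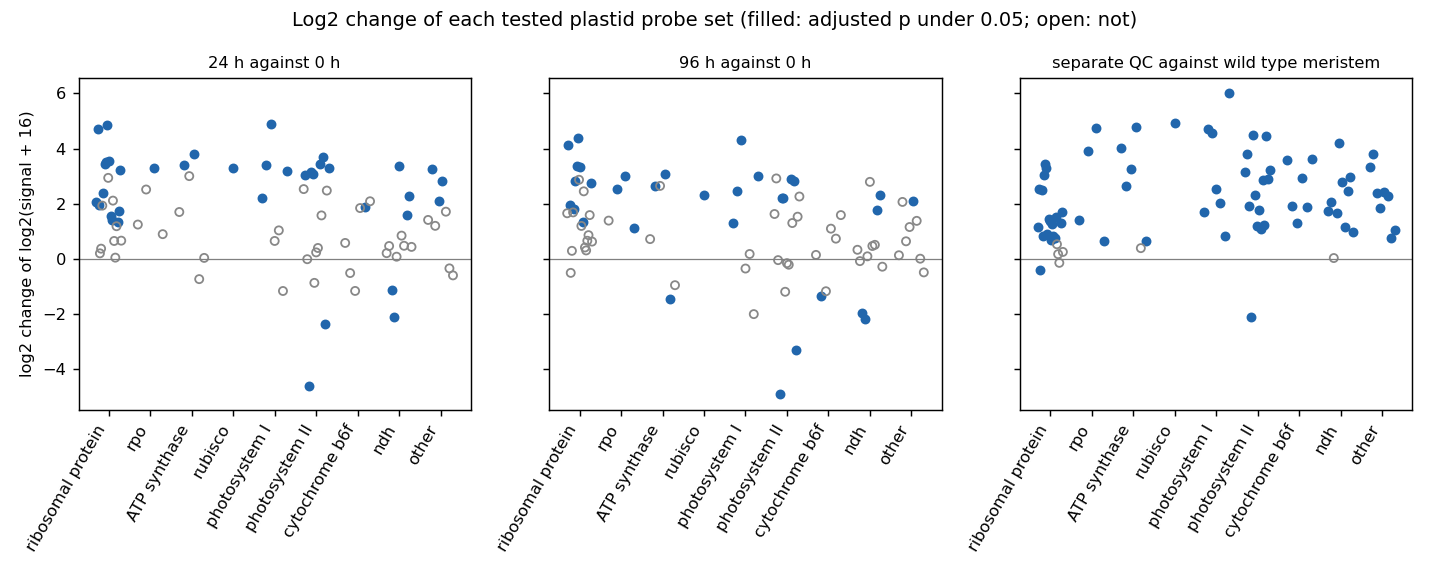
Log2 change of every tested plastid probe set (points) by gene class, at 24 h and at 96 h against 0 h and in the separate QC harvest against the wild type meristem; filled points passed at an adjusted p under 0.05. Ribosomal protein genes lie at or above 0 at 24 h, psbM is the lowest point of all 3 panels, and nearly all points of the right panel lie above 0.

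Among genes of the plastid ribosome 13 of 22 (59.1%) rose at 24 h and 0 fell. All 22 fitted changes were positive, from 0.04 to 4.86, with a median of 1.95, and 9 did not pass. The signal of rpl36 (ATCG00760), a protein of the large subunit, was 50.5, 84.3 and 527.8 in the 0 h replicates 1, 3 and 5, and 3343.8 and 5914.4 at 24 h. Both treated arrays stood above every 0 h array, with a log2 change of 4.86 ± 0.76 (standard error of the fit, as for every ± below; n = 2 against 3, limma adjusted p = 0.000674). For the 5′ piece of rps12 (ATCG00065), a small subunit protein, signals were 43.5, 24.2 and 456.3 at 0 h and 2065 and 3506.1 at 24 h, a change of 4.70 ± 0.86 (limma adjusted p = 0.00188). The second rps12 probe set, ATCG01230, gave 84.8, 328.8 and 875.9 at 0 h and 2531.8 and 3326.3 at 24 h, a change of 3.22 ± 0.71 (limma adjusted p = 0.00415). Both rps12 probe sets were therefore free of overlap between 0 h and 24 h. By contrast rps2 (ATCG00160), of the small subunit, passed at 1.96 ± 0.72 (limma adjusted p = 0.0456) although 0 h replicate 5, at 555, lay above the 24 h array at 467.2. Signals of rps4 (ATCG00380) were 773.3, 670.6 and 2087.6 at 0 h and 986.6 and 1789.5 at 24 h. Those of rpl2 (ATCG01310) were 768.4, 1033.6 and 3681.9 at 0 h and 1824 and 2816.9 at 24 h. In both genes 0 h replicate 5 lay above both 24 h arrays. By 96 h 9 of the 22 ribosomal protein genes were called higher and 0 lower, with a median of 1.67 and 21 positive changes.

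The polymerase genes differed among themselves. Signals of rpoB (ATCG00190), the beta subunit, were 22, 32.4 and 386.6 at 0 h and 823.6 and 915 at 24 h, and rpoB rose by 3.29 ± 0.83 (limma adjusted p = 0.00971). That call was lost without 24 h replicate 3. The alpha subunit gene rpoA (ATCG00740) read 631.4, 678.8 and 467.4 at 0 h and 934.4 and 1293.3 at 24 h, which set every 24 h array above every 0 h array at a change of 0.89 ± 0.44 that did not pass (limma adjusted p = 0.108). It lies in the genome beside ribosomal protein genes, apart from rpoB, rpoC1 and rpoC2, which follow each other in 1 operon. At 24 h rpoC1 (ATCG00180) stood at 2.51 ± 0.93 (limma adjusted p = 0.051) and rpoC2 (ATCG00170) at 1.24 ± 0.65 (limma adjusted p = 0.141), the genes of subunits β′ and β″, both overlapping with 0 h through replicate 5. At 96 h, 3 of the 4 were called, rpoB at 3.01, rpoC1 at 2.53 and rpoA at 1.13 (limma adjusted p = 0.0443), and the call of rpoA was lost when any of the 3 arrays at 0 h was left out.

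Among photosynthesis genes, photosystem I, rubisco and the ATP synthase held large rises. Of 7 photosystem I probe sets 4 rose at 24 h, and the class median was 2.20. The assembly factor gene ycf3 (ATCG00360) had signals of 34, 122.6 and 1052.3 at 0 h and 4889.8 and 6662.3 at 24 h. Its change of 4.88 ± 1.03 (limma adjusted p = 0.00487) was the largest of the 80. The reaction centre genes psaA (ATCG00350) and psaB (ATCG00340) rose by 3.38 ± 0.66 and 2.20 ± 0.44, and psaC (ATCG01060), the iron-sulphur subunit, by 3.19 ± 0.88. For rbcL (ATCG00490), the carbon-fixing subunit of rubisco, arrays read 133.2, 221.7 and 1149.5 at 0 h and 3112.5 and 3721 at 24 h, without overlap, a change of 3.31 ± 0.70 (limma adjusted p = 0.00337). The membrane subunit gene atpI (ATCG00150) rose by 3.78 ± 0.74, from 9.4, 28.2 and 199.7 to 607.5 and 1163.8. Other subunits of the same enzyme did not pass: atpB (ATCG00480), the catalytic beta subunit, stood at 0.03 ± 0.45 (limma adjusted p = 0.963) and atpE (ATCG00470), the epsilon subunit, at -0.74 ± 0.37 (limma adjusted p = 0.107).

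Photosystem II showed both signs. At 24 h 6 of its 15 genes rose, among them psbB at 3.69, psbF at 3.43, psbD at 3.14 and psbC at 3.08, and 2 fell, psbM and psbT. The gene for the D1 reaction centre protein, psbA (ATCG00020), had 35.7 and 72 in 0 h replicates 1 and 3 but 1507.8 in replicate 5, above all 8 treated arrays, which ran from 435.8 to 1164.7. Its change at 24 h of 2.53 ± 1.21 did not pass (limma adjusted p = 0.117), while without replicate 5 it stood at 4.03 (limma adjusted p = 5.41e-07). Some genes of the class of others rose at 24 h too, accD (ATCG00500, a subunit of acetyl-CoA carboxylase) by 3.27 ± 0.87, ycf2 (ATCG00860, a subunit of a protein import motor) by 2.82 ± 0.73 and clpP (ATCG00670, a protease subunit) by 2.09 ± 0.77. In the same class matK read 527.5, 664.3 and 3284.3 at 0 h and 2212.5 and 3590.3 at 24 h. For ccsA the values were 238, 533.3 and 2951.7, then 334 and 670.7. For ycf1 they were 331.8, 648.9 and 1984.5, then 403.6 and 861.4. All of these overlapped between 0 h and 24 h. The call of clpP, at an adjusted p of 0.0462, was lost without any 1 of 10 of the 11 SCR arrays, the exception being 0 h replicate 5, and that of accD without 24 h replicate 2.

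A small group of plastid genes went the other way, and psbM stood out in it. The small photosystem II subunit gene psbM (ATCG00220) had signals of 1089.8, 1071.8 and 1886.9 at 0 h, then 45.1 and 30.9 at 24 h, 15.9 and 12.3 at 48 h, 22.7 and 47.9 at 72 h, and 29.6 and 25.2 at 96 h. Every 0 h array, replicate 5 included, lay far above every treated array. It fell by 4.62 ± 0.36 at 24 h (limma adjusted p = 1.33e-06) and by 4.93 ± 0.36 at 96 h (limma adjusted p = 4.19e-07), and kept its call under every alternative setting and without any 1 array. Treated signals of this size are near the added constant of 16, so the fold depends on that constant. In psbT (ATCG00690), another small photosystem II subunit, signals were 37, 206.4 and 683 at 0 h and 30.9 and 17.3 at 24 h. The groups were separate but replicate 1 lay close to the treated arrays, and its change of -2.35 ± 0.85 (limma adjusted p = 0.0417) was lost under 8 of the single-array omissions and under both other pseudocounts.

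The ndh and cytochrome genes supplied the rest of that group. For ndhF (ATCG01010), a membrane subunit of the NADH dehydrogenase-like complex, signals of 64.4, 104.7 and 247.1 at 0 h compared with 14.1 and 16.3 at 24 h and 13.4 and 15.1 at 96 h. It fell by 2.13 ± 0.47 at 24 h (limma adjusted p = 0.00212) and kept that call without any 1 array. Its treated signals, from 1.2 to 22.8, lie near the added constant of 16, so the size of its fall depends on that constant. It may have entered the test through the 0 h arrays alone, so its call is not used as separate support. The subunit gene ndhC (ATCG00440) read 321.3, 334.6 and 631.7 at 0 h, 201.3 and 152.5 at 24 h and 121.8 and 70.8 at 96 h, and passed with -1.15 ± 0.38 at 24 h (limma adjusted p = 0.024) and -1.96 ± 0.38 at 96 h (limma adjusted p = 0.000872). At 24 h its call was lost without 0 h replicate 5 or either 24 h array, and with scaling to the nuclear median (-0.57, limma adjusted p = 0.215), the fit of all 26 arrays (limma adjusted p = 0.0926) or the replicate block (limma adjusted p = 0.0955). Other ndh genes moved upward, ndhE (ATCG01070) by 3.35 ± 1.1 and ndhH (ATCG01110) by 2.29 at 24 h, and over the 11 the median was 0.46, with 3 higher and 2 lower. Signals of ndhB (ATCG01250) were 55.4, 49.2 and 600.7 at 0 h and 130.4 and 234.2 at 24 h, so replicate 5 lay above both 24 h arrays. At 48 h the ndh median was -0.06, which turned to 0.25 with quantile normalization and to 0.46 with scaling to the nuclear median. The gene for cytochrome f, petA (ATCG00540), was one of few that replicate 5 did not raise: 1839.6, 1263.7 and 1222.7 at 0 h, 771.1 and 1252.8 at 24 h, 385.7 and 449.1 at 48 h and 629.5 and 468.5 at 96 h. It did not pass at 24 h (-0.52 ± 0.33, limma adjusted p = 0.21) and fell by 1.73 ± 0.33 at 48 h (limma adjusted p = 0.000878) and by 1.36 ± 0.33 at 96 h (limma adjusted p = 0.00392). For atpE signals went from 3160.4, 3303 and 5711.6 at 0 h to 1638.1 and 937 at 48 h and 1488.9 and 1363.8 at 96 h, a fall of 1.44 ± 0.37 at 96 h (limma adjusted p = 0.00466).

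**Figure D3:**
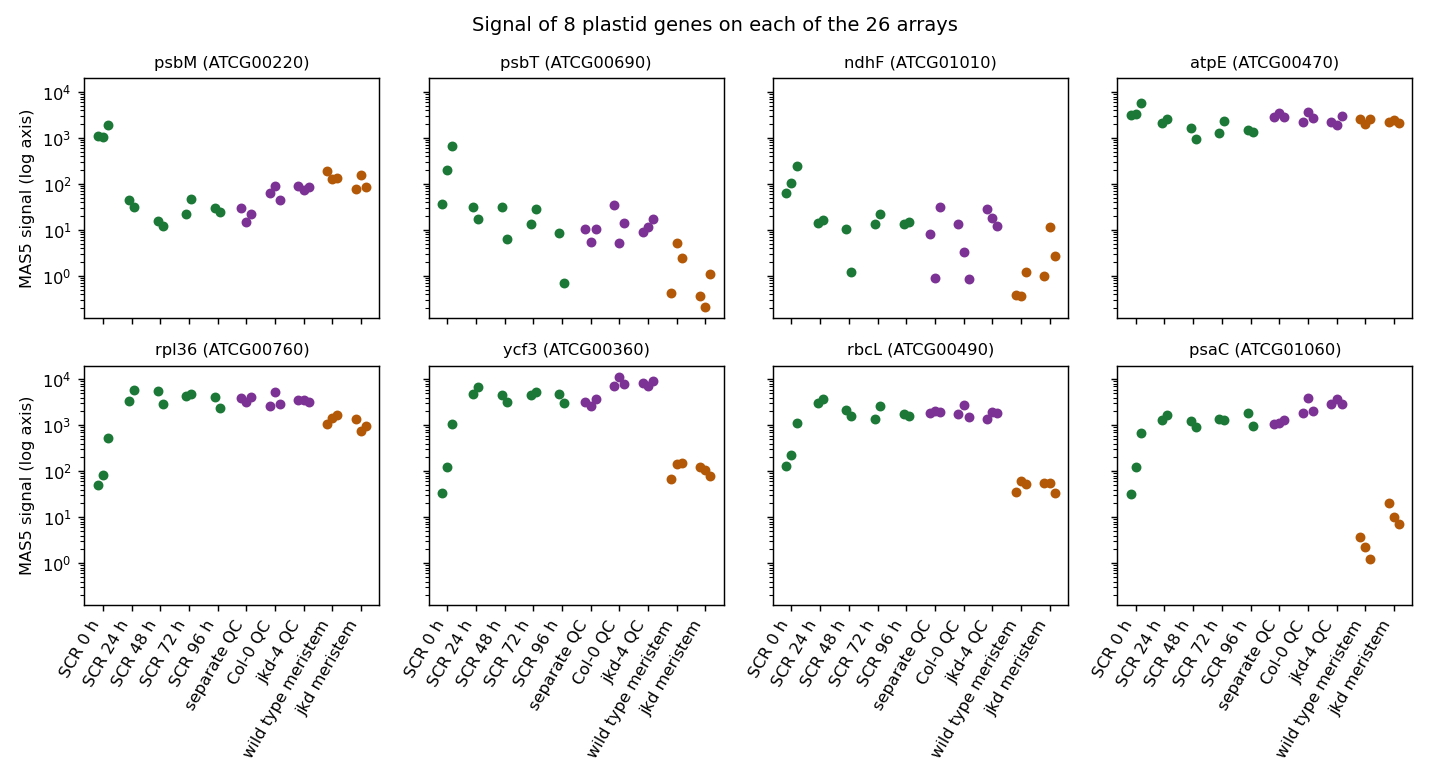
MAS5 signal on a log axis of 8 plastid genes on each of the 26 arrays (points), by group. In psbM, psbT, ndhF and atpE every 0 h array lies above every treated array, while in rpl36, ycf3, rbcL and psaC every treated array lies above every 0 h array and the meristem arrays lie below the QC arrays.

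Later times, which share the 0 h arrays with the 24 h comparison, gave these counts. At 48 h 18 plastid probe sets were called higher and 6 lower (49% of all probe sets passed, 21.8% higher and 27.2% lower), with a median of 1.19. At 72 h the counts were 27 and 7 (49.3%, 23% and 26.4%) and the median 1.31, and at 96 h they were 26 and 6 (52.4%, 24.7% and 27.7%) with a median of 1.3. The median over all probe sets was -0.16, -0.09 and -0.11 at these times. With scaling to the nuclear median it was 0.37, 0.29 and 0.33, and the plastid counts were 41 higher and 6 lower at 48 h, 39 and 5 at 72 h and 39 and 6 at 96 h. Under that scaling the higher share of all calls was 67.7%, 64.3% and 65.3%, in place of 44.5%, 46.5% and 47.2%, and that of plastid calls at 48 h was 87.2% in place of 75%. Without 0 h replicate 5 the plastid counts became 56 and 6 at 48 h, 58 and 6 at 72 h and 59 and 6 at 96 h. Without 0 h replicate 1 they were 13 and 9, 15 and 9, and 15 and 10, and the medians 0.72, 0.74 and 0.78. Without 0 h replicate 3 they were 10 and 5, 13 and 6, and 12 and 6. Omitting a treated array also took away most of the higher calls. The counts were 4 higher and 6 lower at 48 h without replicate 2 and 8 and 4 without replicate 3. At 72 h they were 11 and 2 without replicate 2 and 6 and 5 without replicate 3. At 96 h they were 5 and 6 without replicate 2 and 14 and 5 without replicate 3. The excess of higher over lower calls was thus lost at 48 h and at 96 h without replicate 2 of that time, while the medians stayed positive at 0.89 and 0.90. In 5 of the 80 plastid probe sets every 0 h array lay above all 8 treated arrays, against 28% of all probe sets. In 18 every treated array lay above all 0 h arrays, against 15% of all.

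Between 24 h and 96 h no plastid probe set passed, although most differences were negative. With limma, 0 of the 80 passed at 96 h against 24 h, where 3.86% of all probe sets did, and 1 was lower at an unadjusted p under 0.05. The other settings gave 0 calls, apart from 4 with the replicate number as a block and 1, lower, without 0 h replicate 5. The median change was -0.48, against 0.09 over all probe sets. In 38 plastid probe sets both 96 h arrays lay below both 24 h arrays and in 0 above, while among all probe sets 19.9% lay below and 23.5% above. By class the medians were -0.99 for rbcL, -0.86 for photosystem I, -0.74 for the ATP synthase, -0.62 for cytochrome b6f, -0.61 for photosystem II, -0.25 for ribosomal proteins and 0.08 for rpo, the sign of the last changing with the scaling.

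Each class was also set against the plastid mean of its own array, which takes out the overall gap between the 0 h arrays by construction. On this relative scale the class value is the class mean minus the mean of all 80 probe sets on that array, in log2 units. Ribosomal protein genes lay between -0.06 and 0.16 in the 3 arrays at 0 h and between 0.52 and 0.86 in the 8 treated arrays. The single rubisco gene went from between 0.15 and 0.22 to between 1.19 and 2.03, and rpo from between -0.82 and -0.21 to between -0.13 and 0.58. For rpo replicate 5 still stood apart, at -0.82 against -0.21 and -0.28. In the other direction cytochrome b6f went from between -0.08 and 0.21 to between -1.05 and -0.56, ndh from between -0.93 and -0.48 to between -1.72 and -1.46, and photosystem II from between -0.46 and -0.28 to between -0.83 and -0.56. In these 6 classes no treated array overlapped with a 0 h array, although replicate 5 had a plastid mean as high as the treated arrays. The photosystem II mean includes psbM and psbT, which were called lower at 24 h while other genes of the class were called higher. The ndh mean likewise includes ndhF and ndhC. The cytochrome b6f mean includes petA, called lower at 48 h, 72 h and 96 h, and petL, called lower at 72 h. These means were not taken without those genes, so their falls are not read as shifts of a class as a whole. Photosystem I, the ATP synthase and the other genes overlapped. These values are descriptions of arrays and carry no test.

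**Figure D4:**
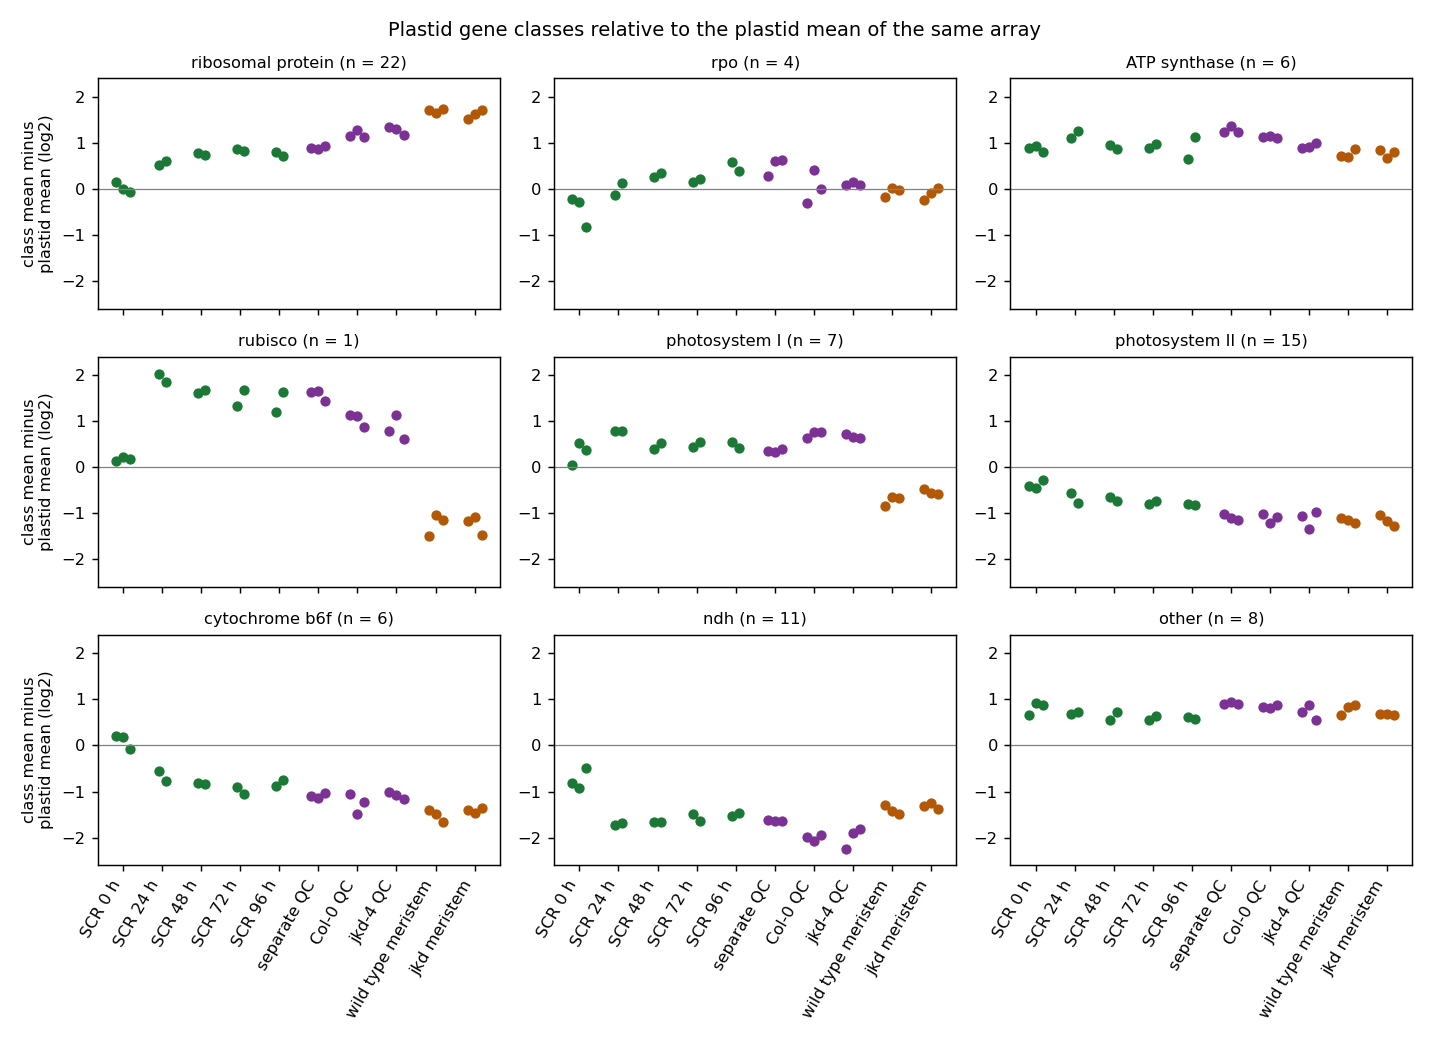
Mean log2(signal + 16) of each plastid gene class minus the plastid mean of the same array (points), for the 26 arrays by group. All 3 arrays at 0 h lie together in the ribosomal protein, rubisco, cytochrome b6f and ndh panels, apart from the treated arrays, and the meristem arrays lie lowest for rubisco and photosystem I and highest for ribosomal proteins.

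The profile over the 80 genes gave the following likeness between arrays. Across genes, 0 h replicate 5 correlated with the other 0 h arrays at r = 0.646 and 0.722, with the 8 treated arrays at 0.372 to 0.44 and with the 9 QC arrays at 0.421 to 0.497. The other 0 h arrays correlated with each other at 0.905 and with treated arrays at 0.225 to 0.362. With the 6 meristem arrays they correlated at 0.559 to 0.651, and replicate 5 at 0.478 to 0.518, so replicate 1 was as like one jkd meristem array (0.651) as it was like 0 h replicate 5 (0.646). The treated arrays correlated among themselves at 0.934 to 0.984 over 28 pairs. Points of such a correlation share probe affinities, and genes are not independent replicates, so these coefficients describe likeness only.

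Untreated SCR cells were set against the separate QC harvest, and more plastid genes were called lower than higher in them. The 0 h seedlings were 2 days old and the QC seedlings 3 days old, and GFP promoter and harvest differed too. Cell type cannot be told apart from these. This comparison uses the same 0 h arrays as the time series, so its values are set beside those above and are not separate evidence. Of the 80, 6 were called higher at 0 h and 35 lower than in QC cells (51.3% of all probe sets passed, 25.5% higher and 25.7% lower), with a median of -1.23, against 0.03 over all probe sets. In 25 of the 80 every 0 h array lay below every QC array, against 22.5% of all probe sets. In 7 every 0 h array lay above every QC array, against 31.7% of all. The plastid mean of 0 h replicate 5, 10.01, lay above those of the 3 QC arrays, and the other 0 h arrays lay below them. Those higher at 0 h were psbM (5.12 ± 0.31, limma adjusted p = 9.56e-09), psbT (3.02), ndhF (2.35), ndhC (1.97), petL (1.81) and psbZ (1.45). The QC signals of psbM were 30.7, 14.9 and 21.9, in the range of the treated cells. Those of psbT were 10.7, 5.5 and 10.7 and those of ndhF 8, 0.9 and 31.7. All lie near the added constant of 16, so the size of these 3 differences depends on it. These genes may also have passed the filter on low signal through the 0 h arrays alone. Among the 35 lower ones were 15 of 22 ribosomal protein genes and 3 of 4 rpo genes, with rpl36 at -4.60 ± 0.62 and rbcL at -2.50 ± 0.57. The fit shares 1 spread over its groups, while plastid array means had an SD of 1.55 at 0 h and 0.13 in the separate QC harvest. These standard errors may therefore be too small. Without 0 h replicate 5 the counts were 5 and 63 and the median -2.08, without replicate 1 they were 7 and 26 and -0.85, and without replicate 3 they were 5 and 22 and -1.02.

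QC cells carried far more plastid signal than the meristem, in each of 3 comparisons. In the separate harvest against the wild type meristem 70 of 78 tested plastid probe sets were higher and 2 lower, where 58.3% of all probe sets passed, 27% higher and 31.3% lower. In Col-0 QC against the same meristem arrays the counts were 73 and 1 of 78 (49.6%, 21.8% and 27.8%), and in jkd-4 QC against the jkd meristem 73 and 0 of 78 (47%, 19% and 28%). The filter on low signal removed psbT and ndhF, and a member can pass it through its high group alone. Over all 80 the median log2 differences were 1.89, 2.35 and 2.38. The medians over all probe sets tested were -0.08, -0.15 and -0.25. In 68 of the 80 every 1 of the 9 QC arrays lay above every 1 of the 6 meristem arrays, against 9.52% of all probe sets. In 0 of the 80 they all lay below. Mitochondrial probe sets moved with them, 47 of 53 tested being higher in the first comparison, with a median of 2.20.

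Several photosynthesis and polymerase genes were near background in the meristem and strong in QC cells. For psaC, signals were 1084.3, 1114.7 and 1282.8 in the separate QC harvest, 1881.13, 3896.63 and 2010.33 in Col-0 QC and 2936.79, 3683.03 and 2856.22 in jkd-4 QC. Wild type meristems read 3.71, 2.29 and 1.22 and jkd meristems 20.3, 10.08 and 7.16, near background. The differences were 6.0 ± 0.20, 7.07 ± 0.31 and 6.82 ± 0.30 in the order above (limma adjusted p = 4.66e-11, 2.29e-07 and 1.15e-07), and their size is set by the pseudocount: with 1 they were 8.48, 9.56 and 7.98, and with 64 they were 4.2, 5.25 and 5.39. The gene passed the filter on low signal through the QC arrays. For rbcL the 3 QC groups read 1851.2, 2023.9 and 1929.8, then 1796.34, 2730.85 and 1485.3, then 1380.09, 1906.32 and 1866.18. Meristem signals were 34.62, 61.17 and 53.93 in wild type and 56.8, 56.77 and 34.05 in jkd. The gap in rbcL was 4.91 ± 0.19, 4.91 ± 0.29 and 4.74 ± 0.30. For ycf3 it was 4.57, 6.05 and 6.13, for psaA 4.70, 4.85 and 4.80, for rpoB 4.75, 4.59 and 4.51, and for atpI 4.77, 4.90 and 4.85. Mean meristem signals of psaA, rpoB and atpI were also near background, at 8.46, 16.68 and 8.85 in wild type and 9.62, 11.76 and 9.02 in jkd, so those differences hang on the pseudocount too. The photosystem I gene psaB, next to psaA on the genome, stood at 1.70, 1.80 and 0.98.

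Several genes did not share the QC excess. In psbM the meristem was higher than the separate QC harvest: 190.06, 130.47 and 132.94 in wild type meristems against 30.7, 14.9 and 21.9 (-2.12 ± 0.24, limma adjusted p = 5.49e-06). Col-0 QC read 64.58, 89.89 and 45.24, lower than the meristem by 1.03 ± 0.30 (limma adjusted p = 0.0158, lost without wild type meristem replicate 1). In jkd-4 QC psbM overlapped with the jkd meristem, at -0.28 ± 0.34 (limma adjusted p = 0.529). The ribosomal protein gene rps2 was lower in the separate harvest (-0.42 ± 0.16, limma adjusted p = 0.0373) and did not pass in the other comparisons. The lower calls in the separate harvest numbered 2, and 1 with no filter, quantile normalization, plain eBayes, the fit of all 26 arrays, the replicate block or array weights. Their number was also 1 when any array was left out other than wild type meristem replicate 2. For atpE the 3 differences were 0.38, 0.27 and 0.05 and for ndhC 0.02, -0.71 and -1.01, and none of them passed. Further genes that missed the threshold were rpl2, rpl23, rpl32 and rps7 in the first comparison, rps2 and rpoC2 in the second and rps16 and rps2 in the third.

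Relative to the plastid mean of the same array, ribosomal protein genes lay higher in the meristem. That class lay between 1.51 and 1.73 in the 6 meristem arrays and between 0.87 and 1.34 in the 9 QC arrays. Photosystem I lay between -0.84 and -0.48 in meristems and between 0.34 and 0.76 in QC cells, and rubisco between -1.50 and -1.04 against between 0.62 and 1.64. The ndh offsets were between -1.48 and -1.24 in meristems and between -2.25 and -1.62 in QC cells. Several ndh genes were near background in wild type meristems, with mean signals of 0.66 (ndhF), 8.12 (ndhJ), 21.42 (ndhH), 26.79 (ndhK) and 28.63 (ndhG), where the added 16 limits how low they can go, so no direction is read from the ndh offsets. The same limit applies to the other classes in meristems. The ATP synthase lay between 0.67 and 0.88 in meristems and just above, between 0.89 and 1.37, in QC cells. Photosystem II, rpo, cytochrome b6f and the other genes overlapped between the tissues.

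The wild type QC harvests also differed from each other. In the separate harvest 1 of 78 tested plastid probe sets was higher and 30 were lower than in Col-0 QC (23.1% of all probe sets passed, 13% higher and 10.1% lower), with a median of -0.45, against 0.07 over all probe sets. The higher one was ndhE (0.94 ± 0.26, limma adjusted p = 0.0186), at 839.6, 918.4 and 1150.1 against 359.35, 664.83 and 499.47. That call was lost with plain eBayes and with the fit of all 26 arrays. It was also lost without Col-0 QC replicate 3 and without replicate 2 or 3 of the separate harvest. The lowest was psbF (ATCG00570), a cytochrome b559 subunit of photosystem II, at 1501.4, 1564.5 and 1665.3 against 7343.03, 10204.25 and 5305.21 (-2.21 ± 0.22, limma adjusted p = 3.1e-05), and 14 of 22 ribosomal protein genes were lower. Genes with near equal signals in both harvests included rpoC1 at 0.03 ± 0.26, rpoB at 0.16 ± 0.30 and rbcL, whose groups overlapped. Without replicate 1 or 2 of the separate harvest the total of 31 became 16 or 15. Root cap markers differed without a shared direction, 2 of 4 being higher and 1 lower in the separate harvest, and mitochondrial probe sets had 23 of 58 lower. The part of either in the plastid differences was not tested.

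No plastid gene passed between jkd and wild type. Col-0 and jkd-4 QC had plastid means of 9.89 ± 0.36 and 9.90 ± 0.31 and the meristems 7.25 ± 0.08 and 7.24 ± 0.12 (SD, n = 3 each). In QC cells 0 of 78 tested were called by limma, where 0.105% of all probe sets were (0.0872% higher and 0.0174% lower), with a median of 0.03 and changes between -0.60 and 0.69. In the meristem the count was 0 of 67 tested (0.933% of all passed, 0.776% higher and 0.157% lower), with a median of -0.04 and changes between -0.61 and 0.57. The remaining 13 fell below the filter in the meristem arrays. The test of whether the jkd effect differed between QC and meristem gave 0 of 78 and 0% of all probe sets. At an unadjusted p under 0.05, 1 plastid gene was found in the QC (rpl33, ATCG00640, 0.68 ± 0.25), 4 in the meristem (atpF, psbC and psaJ higher, rpoA lower by 0.61 ± 0.21) and 1 in the difference (rpl23). Every other setting and every omission of 1 array also gave 0 calls in these comparisons. A missed threshold with 3 arrays a group does not show that the genotypes were alike.

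Nuclear genes for plastid proteins were counted in the same fits. At 24 h, of 16 tested nuclear genes for photosystem and antenna proteins 1 rose and 6 fell (6.25% higher, against 20.7% of all probe sets higher and 27.5% lower), with a median of -0.78. The rest of that set fell below the filter on low signal. The antenna genes LHCA1 and LHCB6 fell by 1.53 and 1.55 and LHCB4.1 rose by 1.74. At 96 h 2 rose and 6 fell, PSAD1 (photosystem I, by 2.10) and PSBY (photosystem II, by 2.32) among the latter. Nuclear genes for plastid ribosomal proteins, the partners of the 22 plastid ones, gave 2 higher and 8 lower of 23 at 24 h, and 5 higher and 3 lower at 96 h, where 24.7% of all probe sets were higher and 27.7% lower. The lower count at 24 h and the higher count at 96 h lie near these shares of all probe sets. Their median of -0.33 at 24 h became 0.20 with scaling to the nuclear median, so its direction is not settled. PRPS10 fell by 1.29 at 24 h and by 0.95 at 96 h, while PRPL9 rose by 1.81 at 96 h. In the separate QC harvest against the meristem 0 of the 23 were higher and 15 lower (27% and 31.3% of all), with a median of -0.73 that stayed negative under both other scalings, where 17 of the 22 plastid ribosomal protein genes were higher. There PRPL27 fell by 1.87 and PRPL24 by 1.43. In Col-0 QC the nuclear counts were 2 higher and 6 lower (21.8% and 27.8% of all).

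Nuclear genes of proteins that assemble on the bacterial-type polymerase had 10 probe sets of 9 genes. Of these 2 rose at 24 h (20%, against 20.7% of all probe sets) and 6 at 96 h (60%, against 24.7%), with 0 lower at both and medians of 0.51 and 1.28. MURE, an enzyme relative found in the transcription complex, had a mean signal of 16.43 at 0 h, 169.45 at 24 h and 231.8 at 96 h, and rose by 3.01 ± 0.38 at 96 h (limma adjusted p = 2.63e-05). PTAC3 rose by 1.74 at 24 h and 1.92 at 96 h, and TRXZ, a thioredoxin of the complex, by 2.10 at 96 h. Of the sigma factors, which direct that polymerase to promoters, 2 were tested: SIG3 rose by 1.82 and SIG5 fell by 1.35 at 24 h. The phage-type polymerase gene RPOTMP stood at 0.50 at 24 h, which did not pass, and was lower in the separate QC harvest than in the meristem by 1.13 ± 0.36 (limma adjusted p = 0.0137). HY5, a light-response regulator of nuclear genes for plastid proteins, rose by 3.08 at 24 h and 2.70 at 96 h. At 96 h starch genes gave 3 higher of 5, ADG1, PGM and GBSS1, and plastid division genes gave 3 higher of 8 probe sets (37.5%, against 24.7% of all), FTSZ2-2, ARC5 and ARC6.

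Genes that lie next to each other on the plastid genome, many of them in shared operons, varied together across the arrays. With each gene taken relative to the plastid mean of its array, 76 pairs of neighbours in RefSeq order had a median r of 0.318 over the 26 arrays. Neighbours of the same class had 0.48 (37 pairs) and those of different classes 0.209 (39 pairs). Pairs that were not neighbours had 0.159 within a class (391 pairs) and -0.05 between classes (2459 pairs). High values were those of atpE with atpB (0.934) and psbN with psbH (0.897). Neighbours from different classes included rbcL with accD (0.853). These arrays share groups: after each group's mean was removed the median of neighbours was 0.121, against -0.02 in both kinds of pair that were not neighbours.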

How the data were processed

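Root cells and meristems of 10 groups were hybridised to 26 one-colour expression arrays, after RNeasy Micro extraction with DNase, WT-Ovation Pico amplification and biotin labelling, per the labels' protocols. The deposited values are linear intensities that, per the submitters' processing notes, the authors made with MAS5. Its version and scaling target, the genome build and the array type are not stated in the sources used here. Array means trimmed at both ends lay between 251.059 and 257.042. The number of arrays limits the precision. The matrix holds 16384 probe sets. A further 3 columns shared a name without a replicate number and were not used, and the other 23 held values equal to those of the arrays' own tables.

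Signals were taken as log2(signal + 16) with no further scaling. Probe sets whose mean over the arrays of a fit was under the 30th percentile were left out, which kept 11469 in each fit. Differences were tested with limma (version 3.58.1, under R 4.3.3), as linear fits moderated by eBayes with its trend and robust options, two-sided, with Benjamini-Hochberg adjustment over all probe sets tested and a threshold of 0.05. The 11 SCR arrays formed 1 fit, joined by the separate QC harvest for its comparison with 0 h, and each comparison of QC cells or meristems used its own 6 arrays, or 12 for the interaction. Fold changes of low signals are understated on this scale. The fits were tested on simulated data. Tables and figures were made with Python 3.11.15, pandas 2.3.3, numpy 2.4.6 and matplotlib 3.10.9.

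Replicate numbers did not pair the arrays: no label ties a number to a shared batch, and deviations of arrays with the same number correlated at -0.136 to 0.049 in the comparisons with 3 numbers in common. Alternatives were other pseudocounts (1 and 64), no filter, quantile normalization, scaling to the nuclear median, plain eBayes, 1 fit of all 26 arrays, the replicate number as a block, array weights and leaving out each array.

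Members and gene lists were chosen with earlier results of these data known. The rule for naming members took psbA, psbD, psaB, petA, atpB, rbcL, ndhB, ndhF, rpoA, rpoB, rpoC2, rps4, rpl2, accD, clpP, ycf2 and matK, the 3 highest and 3 lowest changes of each comparison, and any called member that went against the sign of the median. Not every gene of that list is described for each comparison. Other genes named were chosen after their values were seen. No sequences are printed, since none were used here.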

Additional observations from a re-analysis of the deposited data

How the results depend on the processing

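Of 117 counts of called plastid probe sets under the settings other than single-array omissions, 103 lay within 1.5 times the count first reported and 14 did not. Scaling to the nuclear median gave 47 calls at 48 h, against 24. Plain eBayes gave 19 for the separate QC harvest against Col-0 QC, against 31. The single fit of all 26 arrays gave 46 at 48 h and 9 for the separate harvest against Col-0 QC. Array weights gave 56, 55 and 54 at 48 h, 72 h and 96 h and 63 for 0 h against the separate QC harvest. The cause was not tested for these.

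With the replicate number as a block the counts were 61, 55, 57 and 57 at 24 h, 48 h, 72 h and 96 h, 4 at 96 h against 24 h and 69 for 0 h against the separate QC harvest. Numbers 1 and 5 occur at 0 h and at no treated time, so in that fit the 0 h level of the time series rests on replicate 3 alone. Of the 6 arrays in each comparison with 3 shared numbers, between 0 and 3 correlated best with an array of their own number. Between treated times the difference of replicate 3 from replicate 2 correlated at -0.0377 to 0.176.

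Leaving out 1 array at a time gave 15 to 66 calls at 24 h, 10 to 62 at 48 h, 11 to 64 at 72 h, 11 to 65 at 96 h and 0 to 1 at 96 h against 24 h. It gave 27 to 68 for 0 h against the separate QC harvest, 15 to 33 for that harvest against Col-0 QC, 70 to 72 for it against the wild type meristem, 71 to 74 for Col-0 QC and 68 to 73 for jkd-4 QC. Higher calls outnumbered lower ones 18 to 6 at 48 h and 26 to 6 at 96 h, but not without replicate 2 of that time, with 4 to 6 and 5 to 6. An omission that leaves 1 array at a time rests on the spread of the other groups. The highest count of each comparison with 0 h came without 0 h replicate 5. For single genes, the settings other than omissions kept 2457 results on their side of the threshold, moved 97 past it and lost 53, and the omissions kept 2485, moved 45 past it and lost 123, and no called gene changed sign in either. Scaling to the nuclear median also raised the higher share of all calls in jkd-4 QC against the jkd meristem from 40.5% to 53.5%, and quantile normalization moved it from 51% to 41.5% at 96 h against 24 h. Signals near background, among them psaC in meristems and psbM in treated cells, limit the size of the changes given for them.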
